A study of Mus musculus with 11 samples.

Results

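Type I and type III interferon antiviral genes were followed in mouse distal ileum after dextran sodium sulfate, a polysaccharide that injures the lining of the gut. The 40 members were picked as a list of symbols from a table of 31168 named genes. All 40 had a mean of at least 1 CPM (counts per 1000000 of the scaled library) over the 11 libraries, and 0 lay below that level. The lowest mean was that of Isg15, 1.02 CPM, and the highest that of Parp14, 79.6 CPM. The comparison asks how these transcripts differ between mice with and without Cre in the gut epithelium, where the floxed target is an MHC class II gene.

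Both groups carried H2-Ab1 fl/fl, floxed alleles of the gene for the I-A beta chain, and both received dextran sodium sulfate. The 6 WT mice were Villin:Cre-. The 5 dIEC mice were Villin:Cre+, and the villin promoter makes Cre in intestinal epithelial cells. The series' design text writes Cre- for both groups, so each sample was placed by its own genotype label. The sources used here give no age, sex, litter, cage or dose, and no untreated ileum was compared. Replicates keep the library number of their title, and a p-value here weighs the difference between groups against the spread from library to library alone.

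Type I interferons signal through IFNAR1 and IFNAR2, which most cells carry. Type III interferons, the lambda interferons, signal through IFNLR1 and IL10RB, and IFNLR1 is largely restricted to epithelia and a few leukocytes. Both receptors activate JAK1 and TYK2, and a complex that holds STAT2 and IRF9 then binds interferon-stimulated response elements (ISREs) in the promoters of antiviral genes. In the small intestine the lambda pathway is known as the main interferon defence of the epithelium against enteric viruses.

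The promoter letters of some members match this element, and binding of the complex was not measured. RefSeq promoter windows on GRCm38.p6, from 250 bases before to 50 after the start, were found for 31 of the 40 members. For 25 of the 35 windows of these members, the first 20 bases after the start occurred in a GENCODE transcript of the gene. The ISRE core was searched as GAAA, any 2 bases, then GAAA, on both strands, so TTTC, any 2 bases, then TTTC is the same motif, and copies may overlap. It occurred in 14 of the 31 members (45.2%), against 3.44% of all 32851 windows and 3.95% of the 10208 tested genes with a window. The longer form, the same core followed by CT and so a subset of it, occurred in 8 members (25.8%). Its share was 0.271% of all windows and 0.47% of the tested genes with a window. A match is a description of the letters, and no match says only that these letters are not in the window. Ifit2 had a window but no match to the core. The stretches below are those of Ifit1, Ifit3, Ifit3b and the Oas1 paralogs, whose counts are compared further on, and of Isg15. All lie upstream of the start, read 5′ to 3′ on the gene's strand, and carry the ISRE core in capitals.
Ifit1: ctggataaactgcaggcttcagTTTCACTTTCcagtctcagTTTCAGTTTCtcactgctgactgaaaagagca
Ifit3: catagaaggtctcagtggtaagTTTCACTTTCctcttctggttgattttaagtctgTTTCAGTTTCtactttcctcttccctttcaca
Ifit3b: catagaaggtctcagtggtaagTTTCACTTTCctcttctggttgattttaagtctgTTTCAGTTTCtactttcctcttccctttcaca
Oas1a: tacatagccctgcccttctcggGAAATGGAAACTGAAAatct
Oas1g: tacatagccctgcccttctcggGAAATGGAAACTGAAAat
Isg15: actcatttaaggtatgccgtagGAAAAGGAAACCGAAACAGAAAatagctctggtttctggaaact

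The Ifit1 stretch is chr19:34640763-34640835 on the plus strand, the Ifit3 stretch chr19:34583351-34583438 (plus) and the Ifit3b stretch chr19:34607747-34607834 (plus). The Ifit3 and Ifit3b stretches were identical at 88 of 88 bases. The Oas1a stretch is chr5:120907526-120907567 and the Oas1g stretch chr5:120887614-120887653, both on the minus strand, and 40 of the 40 bases compared were identical. The Isg15 stretch is chr4:156200853-156200918 on the minus strand and holds 3 overlapping copies of the core.

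Total counts ran from 6603965 to 9681698 per library, of which protein-coding genes other than Lars2 kept 1510300 to 3215570. H2-Ab1, the targeted gene, averaged 82.7 ± 27.2 CPM over the 6 WT libraries and 25.8 ± 9.82 CPM over the 5 dIEC libraries (± SD here and below), with no overlap (exact permutation p = 0.00433; edgeR adjusted p = 0.363). All 8 epithelial markers were detected, at a summed 1741 to 2770 CPM in WT and 2028 to 2731 CPM in dIEC. The 8 T cell markers summed to 8.89 to 15.2 CPM in WT and 14.6 to 29.0 CPM in dIEC, and the 7 fibroblast markers to 260.2 to 860.2 and 260.5 to 433.3 CPM. The 7 markers of plasmacytoid dendritic cells in the table, known producers of type I interferon, summed to 58.3 to 86.8 CPM in WT and 60.8 to 76.2 CPM in dIEC. Most of this sum came from 1 gene, Tcf4 (WT mean 51.8 CPM, dIEC mean 45.8 CPM), so it does not measure how many such cells were present. Of the 5 of these markers tested 3 lay above 0 (median log2 fold change 0.031), and Siglech, the defining one, had 18 counts over all libraries. The 5 neutrophil markers in the table summed to 0.748 to 2.14 and 0.894 to 2.52 CPM.

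Across the members the 2 groups were not separated. Of the 40 genes, 37 passed the filter on low counts and were tested, and 0 of the 37 passed edgeR's adjusted threshold, against 0.00628% (1 gene) of the 15911 genes tested. The lowest adjusted p of a member was 0.427, for Dtx3l. DESeq2 called 0 of the 37 as well, against 0.0691% of all genes. At an unadjusted edgeR p under 0.05 there were 4 members, Dtx3l, Parp9, Parp14 and Ifit1, or 10.8% of those tested, and the share over all genes was 10.7%, so the members' count is at the background. All 4 averaged higher in dIEC, where the share over all genes is 4.86%, and 0 averaged lower, where it is 5.79%. By DESeq2 4 members had an unadjusted p under 0.05, against 10.1% of all genes. By exact permutation 1 member, Dtx3l, had an unadjusted p under 0.05 (0.039; 0.593 adjusted over all genes), against 7.95% of all genes.

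No member separated the groups. In 0 of the 37 did every dIEC library lie above every WT library (0.233% of all genes tested), and in 0 did every dIEC library lie below (0.333%). The 95% interval of the log2 fold change lay within 2-fold in both directions for 29 of the 37. It reached past 2-fold for Irf7, Ifit1, Ifit2, Ifit3, Oas1g, Oas3, Oasl1 and Ifi27l2b, with extremes of -1.13 for Ifit3 and 1.44 for Ifit1. Log2 fold changes, dIEC against WT, were above 0 for 32 of the 37, with a median of 0.20, while 48.8% of all genes tested were above 0 with a median of -0.0073. With library size alone as the scaling, 20 of the 37 were above 0 and their median was 0.010, and the median of all genes moved to -0.22. Cell type markers were shifted too. Log2 fold changes were above 0 for 8 of 8 epithelial markers tested (median 0.22) and 6 of 6 T cell markers (0.64). They were above 0 for 0 of 8 smooth muscle (median -0.35), 0 of 7 fibroblast (-1.01), 0 of 6 endothelial (-0.33) and 1 of 8 macrophage markers (-0.073). The part of these shifts in the members' fold changes was not tested beyond the smooth muscle fit below. In whole tissue, fewer cells of a type and less RNA per cell cannot be told apart.

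The counts depended on single libraries. The 4 members at an unadjusted p under 0.05 became 10 of 38 tested without dIEC replicate 6 (14.4% of all genes in that fit) and 7 of 38 without dIEC replicate 5 (11.5%). They became 1 without dIEC replicate 3, without dIEC replicate 11 or without WT replicate 2, each left out alone, where 9.2, 7.14 and 7.0% of all genes had such a p. The median was 0.30 without dIEC replicate 6, 0.13 without dIEC replicate 3 and 0.16 without dIEC replicate 11, and 35, 28 and 28 members lay above 0. Without WT replicate 8, 319 genes passed the adjusted threshold (213 higher and 106 lower in dIEC), and 0 members were among them, with a lowest adjusted p of 0.103 for Trim25.

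**Figure D1:**
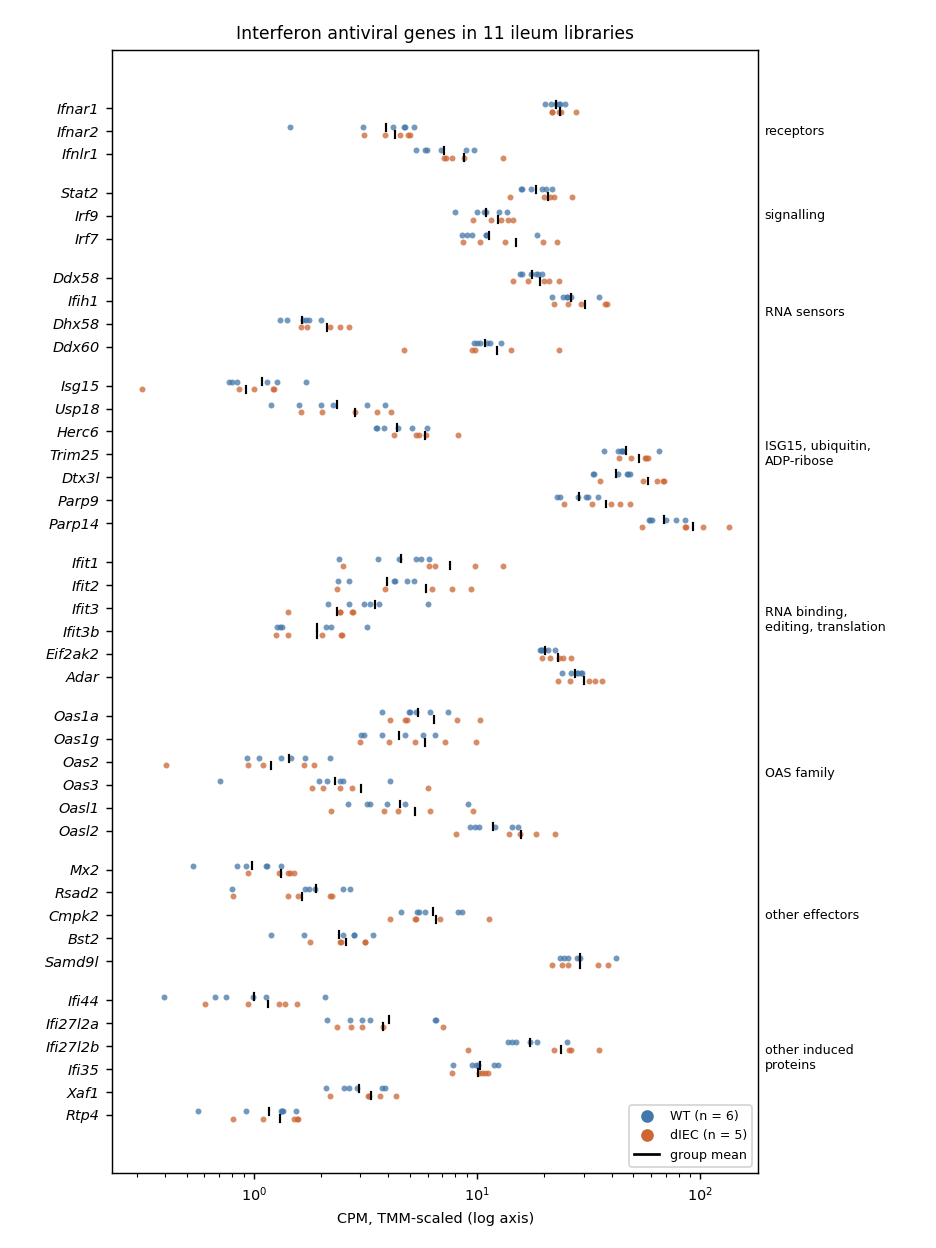
CPM on a log axis for the 40 members in blocks by role, with 1 point per library (WT, n = 6; dIEC, n = 5) and a black bar at each group mean. The points of the groups overlap for every member, from Isg15 near 1 CPM to Parp14 at 54.5 to 134 CPM.

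**Figure D2:**
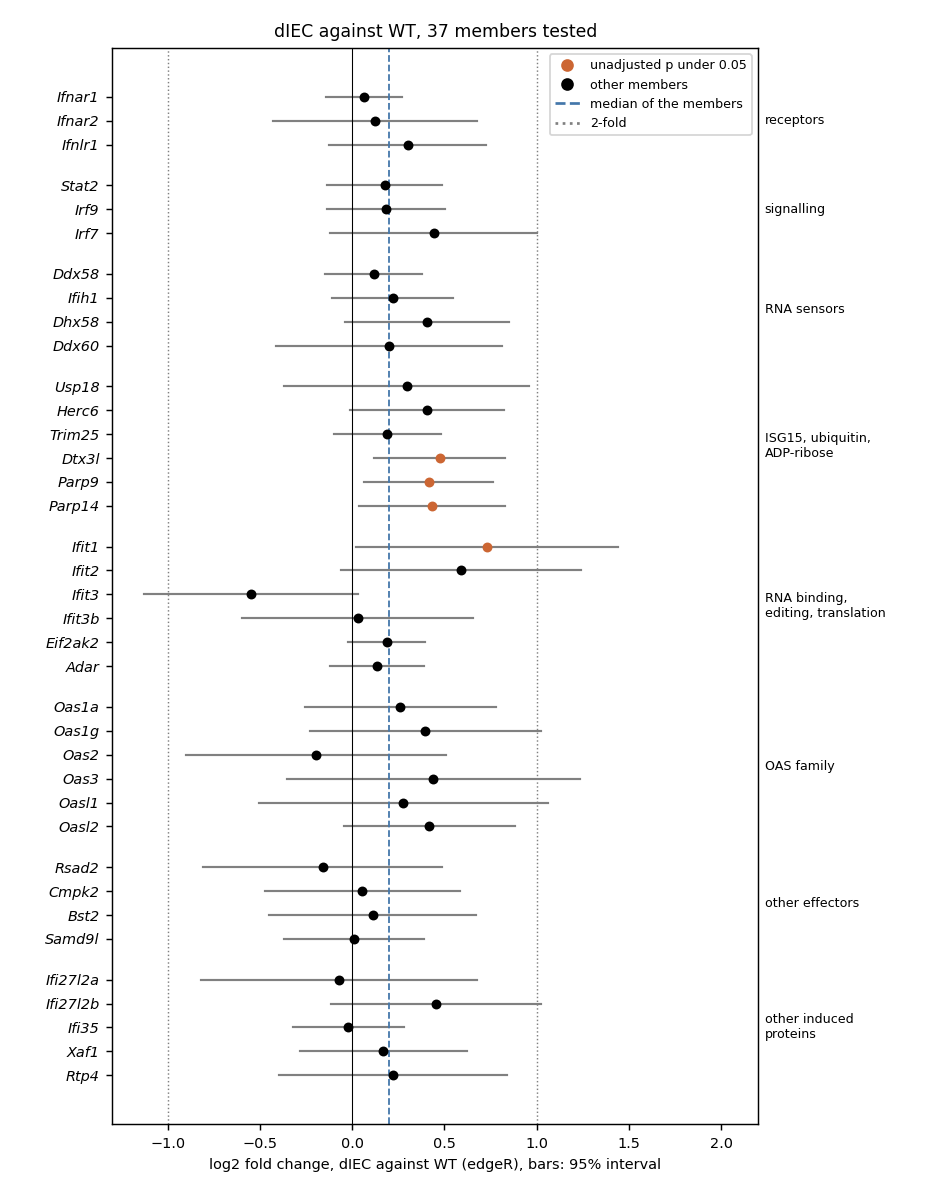
Log2 fold change of dIEC against WT from edgeR for the 37 members tested, with 95% intervals, a dashed line at the members' median of 0.20 and dotted lines at 2-fold. Orange points mark Dtx3l, Parp9, Parp14 and Ifit1, whose unadjusted p is under 0.05.

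The 3 receptor chains were measured in every library. Ifnlr1, the chain specific to the lambda receptor, had 5.35, 6.44 and 9.64 CPM as the lowest, median and highest WT values. In dIEC it had 13.1, 7.26, 8.71, 7.09 and 7.69 CPM in replicates 1, 3, 5, 6 and 11. All 5 dIEC libraries lay above the WT median, and replicate 1 alone lay above every WT library. The log2 fold change was 0.30 ± 0.20 (SE), with edgeR adjusted p = 0.572. Ifnar1 varied little, with 20.05, 22.9 and 24.7 CPM in WT and 27.7, 23.8, 21.7, 21.6 and 23.2 CPM in dIEC replicates 1, 3, 5, 6 and 11. Its log2 fold change of 0.065 had a 95% interval of -0.14 to 0.27. Mean Ifnar2 was 3.90 ± 1.40 CPM (WT) and 4.29 ± 0.791 CPM (dIEC). Per kilobase of exon, Ifnar1 stood at 3.80 ± 0.273 CPM in WT, Ifnlr1 at 1.70 ± 0.423 and Ifnar2 at 1.17 ± 0.421. Ifnlr1 and Ifnar2 thus differed by little more than their SDs, and Ifnar1 lay well above both.

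Among the signalling factors, Irf7, the factor that interferon induces to amplify its own production, had the widest spread. Its lowest, median and highest WT values were 8.53, 10.2 and 18.5 CPM, and the 18.5 belonged to replicate 8. The dIEC values were 13.4, 22.8, 10.3, 8.66 and 19.8 CPM in replicates 1, 3, 5, 6 and 11. Replicates 3 and 11 lay above every WT library and replicate 6 near the lowest of them. The log2 fold change was 0.44 ± 0.26 (SE; edgeR adjusted p = 0.538). Irf9, the DNA-binding subunit of the STAT complex, had 7.95, 10.9 and 13.7 CPM in WT and 13.8, 14.4, 12.8, 9.61 and 11.5 CPM in dIEC. Stat2, its partner, averaged 18.4 ± 2.42 and 20.8 ± 4.56 CPM. For both, the log2 fold change was 0.18 and the groups overlapped.

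The RNA sensors were expressed at unequal levels but differed little between groups. Ifih1 encodes MDA5, which detects long double-stranded RNA, and had 21.8, 25.2 and 35.3 CPM in WT. In dIEC it had 29.3, 38.2, 25.5, 22.2 and 37.2 CPM in replicates 1, 3, 5, 6 and 11, so replicates 3 and 11 lay above all WT libraries. Dhx58 encodes LGP2, a regulator of the other helicases, and had 1.31, 1.69 and 2.01 CPM in WT. Its dIEC values of 2.44, 2.68, 1.62, 1.73 and 2.198 CPM placed 3 of 5 libraries above every WT library. Log2 fold changes were 0.22 ± 0.15 (SE) for Ifih1 and 0.41 ± 0.21 for Dhx58, with edgeR adjusted p of 0.593 and 0.488. Ddx58, which encodes RIG-I, averaged 17.6 ± 1.59 and 19.1 ± 3.44 CPM.
Ddx60, a helicase linked to RIG-I signalling, showed the dIEC spread most clearly. Its WT libraries ran from 9.72 to 12.8 CPM. In dIEC it had 9.78, 14.2, 9.52, 4.72 and 23.4 CPM in replicates 1, 3, 5, 6 and 11, so replicates 5 and 6 lay below every WT library and replicates 3 and 11 above. Its log2 fold change was 0.20 ± 0.28 (SE; edgeR adjusted p = 0.820), and -0.17 without dIEC replicate 11.

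The lowest p-values among the members came from 3 genes of ADP-ribose and ubiquitin transfer that lie beside each other on chromosome 16. Parp14 and Parp9 encode ADP-ribosyltransferases, and Dtx3l encodes a ubiquitin ligase that works as a complex with PARP9. On GRCm38, Parp14 spans chr16:35832874-35871544 (minus strand), Dtx3l chr16:35926511-35939151 (minus) and Parp9 chr16:35938470-35972605 (plus). Dtx3l and Parp9 run in opposite directions from a shared start region, and 458 exon bases of their annotation overlap.
Dtx3l had 33.0, 44.8 and 48.2 CPM as the lowest, median and highest WT values. In dIEC it had 68.4, 64.0, 55.3, 35.4 and 68.3 CPM in replicates 1, 3, 5, 6 and 11. Thus 4 of 5 dIEC libraries lay above every WT library, and replicate 6 lay in the lower part of the WT range. The log2 fold change was 0.47 ± 0.17 (SE), with edgeR adjusted p = 0.427.
Parp9 had 22.7, 29.5 and 34.6 CPM in WT, and 39.97, 48.5, 32.8, 24.6 and 43.8 CPM in dIEC replicates 1, 3, 5, 6 and 11. Again replicate 6 was the lowest, and 3 of 5 lay above all WT libraries. Its log2 fold change was 0.41 ± 0.16 (SE; edgeR adjusted p = 0.428). Parp14 ran from 58.7 to 85.5 CPM in WT and from 54.5 CPM (replicate 6) to 134 CPM (replicate 11) in dIEC, with a log2 fold change of 0.43 ± 0.19 (SE; edgeR adjusted p = 0.444). The ratio of Parp9 to Dtx3l counts, which does not depend on library scaling, averaged 0.681 ± 0.0259 (WT) and 0.654 ± 0.0724 (dIEC). It ran from 0.655 to 0.718 over the WT libraries and from 0.584 to 0.757 over the dIEC libraries, where 3 lay below every WT library and 1 above. The summed T cell markers, 8.89 to 15.2 CPM in WT, were 27.9, 16.4, 14.6, 16.2 and 29.0 CPM in the same dIEC libraries, and their part in these values was not tested.

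Isg15 itself, the ubiquitin-like protein that antiviral cells attach to other proteins, had few counts. It had 2 to 13 counts per library and a mean of 1.09 ± 0.367 CPM (WT) against 0.927 ± 0.376 CPM (dIEC), and the filter on low counts kept it out of the test. Per kilobase of exon its WT mean was 1.44 ± 0.486 CPM, above Usp18 (0.842 ± 0.359) and Herc6 (0.473 ± 0.105) and below the other members of this role. Usp18, which removes ISG15 and restrains the type I receptor, averaged 2.35 ± 1.003 and 2.83 ± 1.05 CPM. Herc6, the ligase that attaches ISG15 in mice, averaged 4.40 ± 0.971 CPM (WT) and 5.83 ± 1.48 CPM (dIEC; log2 fold change 0.40 ± 0.19 SE, edgeR adjusted p = 0.472). Trim25, a ubiquitin ligase of the RIG-I pathway, averaged 46.4 ± 9.65 and 52.8 ± 6.43 CPM. For all 6 tested members of this role the log2 fold change was above 0 (median 0.41).

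The Ifit genes, whose proteins bind viral RNA and block its translation, lie in 1 cluster on chromosome 19 and had log2 fold changes of both signs. Ifit1 had 2.40, 4.90 and 6.07 CPM as the lowest, median and highest WT values. In dIEC it had 6.47, 9.83, 6.08, 2.52 and 13.1 CPM in replicates 1, 3, 5, 6 and 11. Thus 4 of 5 lay above every WT library, replicate 5 by a margin far smaller than the spread, and replicate 6 lay next to the lowest WT library. The log2 fold change was 0.73 ± 0.33 (SE), the largest of the members tested, with edgeR adjusted p = 0.457.
Ifit2 had 2.38, 4.27 and 5.20 CPM in WT, and 9.35, 6.26, 3.85, 2.36 and 7.69 CPM in dIEC replicates 1, 3, 5, 6 and 11. Its log2 fold change was 0.59 ± 0.30 (SE; edgeR adjusted p = 0.490). Ifit3 was the member of opposite sign. It had 2.15, 3.20 and 6.04 CPM in WT, and 2.44, 2.79, 2.43, 1.42 and 2.75 CPM in dIEC, so every dIEC library lay below the WT median. The log2 fold change was -0.55 ± 0.27 (SE; edgeR adjusted p = 0.480), the lowest of the members tested. Its near copy Ifit3b had 1.27, 1.73 and 3.23 CPM in WT, and 2.01, 2.46, 1.42, 1.26 and 2.47 CPM in dIEC. Replicate 6 lay just below the lowest WT library and the others within the WT range. The Ifit3b log2 fold change was 0.030 ± 0.29 (SE).

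How far Ifit3 and Ifit3b can be told apart is limited. Of the 50-base words of Ifit3 transcripts in GENCODE, 51.2% also occur in Ifit3b, and 45.0% of those of Ifit3b occur in another gene, nearly all in Ifit3. The ratio of Ifit3 to Ifit3b counts had 1.56, 1.76 and 2.44 as the lowest, median and highest WT values, and was 1.21, 1.14, 1.71, 1.12 and 1.11 in dIEC replicates 1, 3, 5, 6 and 11. In 4 of 5 dIEC libraries it lay below every WT library, while replicate 5 lay within the WT range. The ratio of Ifit1 to Ifit3, chosen after the values were seen and given with no test, averaged 1.44 ± 0.662 (WT) and 3.04 ± 1.14 (dIEC). Counts behind these ratios were low, 9 to 58 per library for Ifit3 and 7 to 31 for Ifit3b.
Relative to their level, Eif2ak2 and Adar, whose proteins also act on double-stranded RNA, varied less from library to library than the Ifit genes. The highest over the lowest library was 1.38 for Eif2ak2 and 1.58 for Adar. For the Ifit genes, which had fewer counts, it ran from 2.56 (Ifit3b) to 5.44 (Ifit1). Eif2ak2 encodes PKR, which halts translation, and averaged 20.2 ± 1.23 CPM (WT) and 22.9 ± 2.68 CPM (dIEC). Adar, which edits adenosine to inosine, averaged 27.6 ± 2.08 and 30.1 ± 5.54 CPM. Their log2 fold changes were 0.19 ± 0.097 and 0.13 ± 0.12 (SE), with edgeR adjusted p of 0.490 and 0.678.

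**Figure D3:**
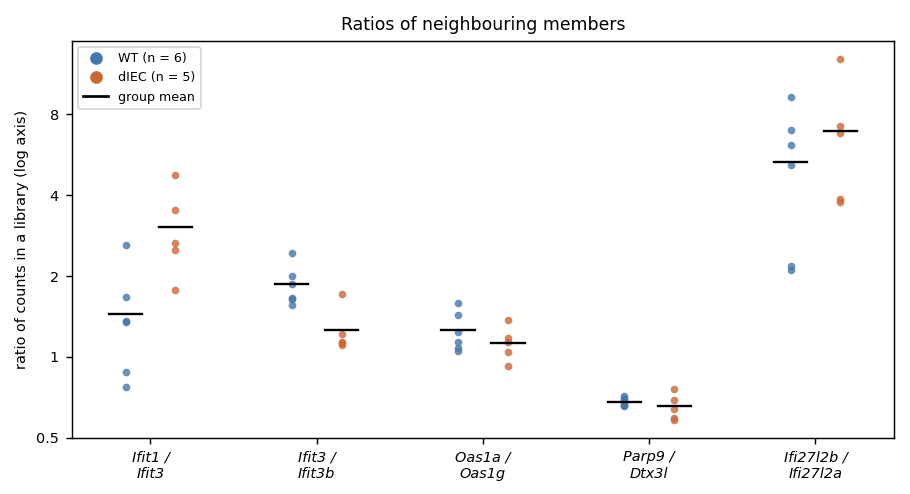
Ratio of counts of 2 neighbouring or paralogous members in each library, on a log axis, with 1 point per library and a bar at each group mean. Ifit1 to Ifit3 averaged 1.44 in WT and 3.04 in dIEC, Ifit3 to Ifit3b averaged 1.86 and 1.26, and Parp9 to Dtx3l stayed between 0.584 and 0.757.

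The oligoadenylate synthetases make a messenger that activates RNase L, and Oasl1 and Oasl2 are their relatives. Of these 6 genes 5 lay above 0 in log2 fold change (median 0.34), and none passed (lowest edgeR adjusted p 0.492, Oasl2). Oasl2 had 9.25, 11.1 and 15.2 CPM in WT, and 13.9, 22.2, 15.6, 8.03 and 18.4 CPM in dIEC replicates 1, 3, 5, 6 and 11, with a log2 fold change of 0.42 ± 0.22 (SE). Replicate 6 lay below every WT library and 3 of 5 lay above.
Oas1g had 3.02, 4.25 and 6.51 CPM in WT, and 4.03, 7.15, 5.27, 2.99 and 9.89 CPM in dIEC. Oas1a, its close paralog, had 3.75, 5.18 and 7.39 CPM in WT, and 4.74, 8.16, 4.86, 4.09 and 10.3 CPM in dIEC. In both, replicates 3 and 11 were the 2 highest of all libraries. Of the 50-base words of Oas1a, 57.6% occur in Oas1g, so their counts are not independent, and their ratio averaged 1.26 ± 0.213 (WT) and 1.13 ± 0.166 (dIEC).
Oas2 was the exception in direction, with 0.935, 1.40 and 2.19 CPM in WT, and 1.87, 1.68, 0.405, 0.945 and 1.10 CPM in dIEC (log2 fold change -0.20 ± 0.33 SE, edgeR adjusted p = 0.853). Oas3 averaged 2.30 ± 1.09 CPM (WT) and 3.02 ± 1.72 CPM (dIEC), where replicate 3 alone had 6.03 CPM. Without replicate 3 its log2 fold change moved from 0.44 to -0.0098, and that of Oasl1 from 0.28 to -0.077.

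Among other effectors against viral replication and budding, 3 of the 4 tested lay above 0 and the median was 0.033. Rsad2, which encodes viperin, an enzyme that makes a chain-terminating nucleotide, had 0.802, 1.83 and 2.71 CPM in WT. Its dIEC values were 1.58, 2.23, 0.810, 1.42 and 2.198 CPM in replicates 1, 3, 5, 6 and 11, all within the WT range. Cmpk2, the kinase gene beside it on chromosome 12, had 4.55, 5.67 and 8.59 CPM in WT, and 5.32, 6.82, 5.27, 4.09 and 11.3 CPM in dIEC. Log2 fold changes were -0.16 ± 0.30 (SE) for Rsad2 and 0.056 ± 0.25 for Cmpk2, with edgeR adjusted p of 0.872 and 0.951.
Bst2, which encodes tetherin, a protein that holds budding virions at the membrane, had 1.19, 2.65 and 3.42 CPM in WT. In dIEC it had 3.16, 2.46, 2.43, 3.15 and 1.79 CPM, also all within the WT range. Samd9l, a restriction factor of poxviruses, averaged 28.8 ± 6.76 and 28.8 ± 7.33 CPM. Its log2 fold change was 0.0096, with a 95% interval of -0.37 to 0.39. Mx2 belongs to a family of dynamin-like GTPase genes, and its GENCODE gene type is polymorphic pseudogene, not protein-coding. It was not tested because its counts were low. Mx2 averaged 0.983 ± 0.279 CPM (WT) and 1.32 ± 0.227 CPM (dIEC), with 3 of 5 dIEC libraries above every WT library.

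The remaining interferon-induced genes included the highest member level per length. Per kilobase of exon, Ifi27l2b stood at 15.9 ± 3.93 CPM in WT (SD), followed by Ifi27l2a at 8.73 ± 4.24, Trim25 at 8.06 ± 1.68, Parp14 at 7.38 ± 1.20 and Dtx3l at 7.33 ± 1.24. The last 4 lay within the SD of Ifi27l2a, so their order is not resolved. Ifi27l2b, one of a pair of small mitochondrial or membrane proteins, had 13.7, 16.1 and 25.2 CPM in WT. Its dIEC values were 35.2, 25.9, 22.1, 9.13 and 26.4 CPM in replicates 1, 3, 5, 6 and 11, with 3 of 5 above every WT library and replicate 6 below them all. The log2 fold change was 0.45 ± 0.26 (SE; edgeR adjusted p = 0.532).
Its neighbour Ifi27l2a had 2.14, 3.17 and 6.56 CPM in WT, and 2.73, 3.80, 3.04, 2.36 and 7.01 CPM in dIEC, with a log2 fold change of -0.072 ± 0.35 (SE). Only 0.483% of its 50-base words occur in Ifi27l2b, so few words of this length are shared. Read length is not given in the sources used here, so no share of 50-base words says how reads were assigned. Xaf1, a pro-apoptotic interferon target, had 2.11, 2.79 and 3.85 CPM in WT and 4.31, 3.69, 3.24, 2.205 and 3.30 CPM in dIEC. Ifi35 averaged 10.3 ± 1.67 and 10.1 ± 1.38 CPM, and Rtp4 1.18 ± 0.364 and 1.31 ± 0.343 CPM. Ifi44 was not tested because its counts were low, and averaged 1.003 ± 0.587 and 1.16 ± 0.380 CPM.

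The dIEC libraries differed widely among themselves. The SD was larger in dIEC than in WT for 28 of the 40 members, against 55.5% of all genes. Over the 40 members, dIEC replicate 6 was the lowest of the 5 dIEC libraries for 29, while it was so for 24.0% of all genes tested. It was the lowest of all 11 libraries for 15 members (37.5%), against 8.85% of all genes. At the other end, dIEC replicate 3 or 11 was the highest of all 11 libraries for 21 of the 40, against 14.5% of all genes. On log2(CPM + 1), the median deviation of the members from their own means was 0.28 in replicate 3, 0.26 in replicate 11, 0.14 in replicate 1, -0.097 in replicate 5 and -0.32 in replicate 6. The WT libraries ran from -0.18 (replicate 12) to 0.035 (replicate 7). So 3 dIEC libraries lay above all WT libraries on this measure and 1 lay below them all.
Library measures moved with this order in part, and for the epithelial markers replicates 3 and 11 were also the highest and replicate 6 the lowest of the dIEC libraries. The ribosomal share of the counts was 28.7, 34.6, 45.4, 49.2 and 44.5% in dIEC replicates 3, 11, 1, 5 and 6, and 26.2 to 43.4% in WT. The summed smooth muscle markers were 2538, 1980, 1243, 2938 and 3096 CPM in the same order of libraries, the epithelial markers 2571, 2731, 2195, 2297 and 2028 CPM, and the T cell markers 16.4, 29.0, 27.9, 14.6 and 16.2 CPM. The part of these cell type sums in the members' values was not tested beyond the smooth muscle fit. With the ribosomal share as a covariate 10 of 37 members had an unadjusted p under 0.05 (27.0%, against 6.31% of all genes in that fit), and the median of the 37 was 0.27. Taking the smooth muscle markers as the covariate, 0 of 37 had one (4.66% of all genes), and the median was 0.14. In both fits 0 members passed the adjusted threshold.

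**Figure D4:**
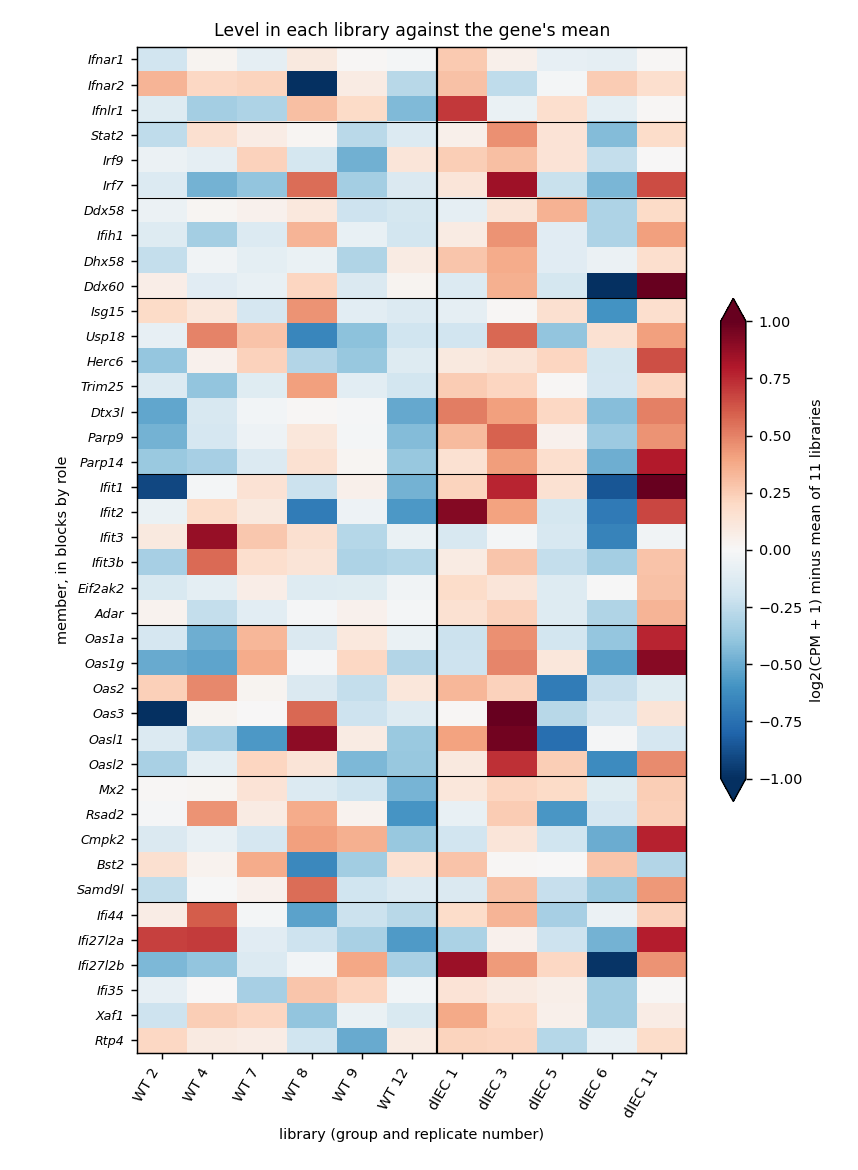
Heat map of log2(CPM + 1) minus the mean of the 11 libraries for each member (rows, in blocks by role) and library (columns, WT left and dIEC right of the line), with the colour scale clipped at 1 in either direction. Replicates 3 and 11 of dIEC are mostly red and replicate 6 mostly blue, with median deviations of 0.28, 0.26 and -0.32.

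**Figure D5:**
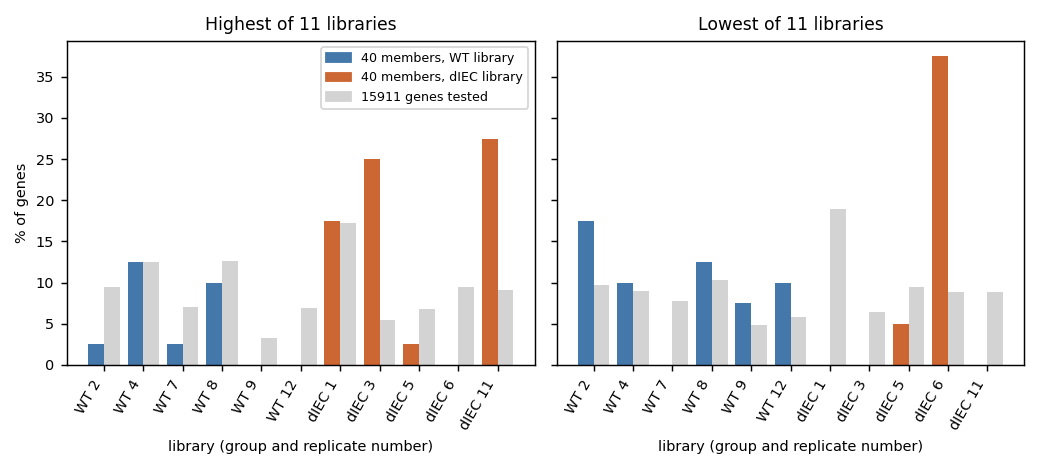
Percent of the 40 members (coloured bars) and of the 15911 genes tested (grey bars) for which each library was the highest or the lowest of the 11. Replicate 11 of dIEC was the highest for 27.5% of the members and replicate 6 of dIEC the lowest for 37.5%, against 9.11% and 8.85% of all genes.

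Other genes of the pathway were described beside the members. Of the 19 ligand genes listed, Ifnk was in the table of named genes, at 1.31 ± 0.498 CPM (WT) and 1.34 ± 0.331 CPM (dIEC). The symbols of the other 18 were not in it, so no level can be given for them. Ube2l6, the conjugating enzyme for ISG15, had 4.46, 7.93, 4.05, 3.62 and 9.48 CPM in dIEC replicates 1, 3, 5, 6 and 11 against 3.34 to 4.80 CPM in WT (log2 fold change 0.63 ± 0.24 SE, edgeR adjusted p = 0.427).
Socs1, a feedback inhibitor of the kinases, had no overlap between groups. It ran from 0.423 to 1.34 CPM in WT and had 1.87, 3.799, 2.63, 1.57 and 2.34 CPM in dIEC, so all 5 dIEC libraries lay above every WT library. Its log2 fold change was 1.41 ± 0.31 (SE) with edgeR adjusted p = 0.427, and DESeq2 gave 0.0713. Over the edgeR alternatives the adjusted p ran from 0.0457, without WT replicate 8, where calls over all genes also went from 1 to 319, to 0.970 with the smooth muscle covariate, and the stricter filter on low counts left Socs1 out. Il10rb, the second chain of the lambda receptor, averaged 11.02 ± 1.90 CPM (WT) and 13.8 ± 2.96 CPM (dIEC). Jak1 averaged 55.1 ± 3.88 and 60.1 ± 2.47 CPM, and Tyk2 20.4 ± 2.38 and 19.95 ± 2.04 CPM.
Genes that sense nucleic acids and induce interferon lay on both sides of 0. Of 16 tested, 7 were above 0, the median was -0.034, and 2 higher and 1 lower had an unadjusted edgeR p under 0.05 (4.86 and 5.79% of all genes), with 0 passing adjusted. Tbk1, the kinase that activates IRF3, averaged 22.1 ± 4.74 and 30.9 ± 8.66 CPM, with 45.9 CPM in dIEC replicate 1. Traf6, an adaptor of the Toll-like receptors, averaged 14.9 ± 2.95 and 21.1 ± 7.09 CPM, with 33.6 CPM in the same library.
Of 47 other interferon-stimulated genes 40 were tested, 26 lay above 0, and the median was 0.13. Among them 6 had an unadjusted edgeR p under 0.05, all toward higher values (4.86% of all genes), and 0 passed adjusted. Apobec3, which encodes a cytidine deaminase that restricts retroviruses, averaged 18.02 ± 2.19 CPM (WT) and 25.5 ± 5.08 CPM (dIEC; log2 fold change 0.50 ± 0.13 SE, edgeR adjusted p = 0.427). Tnfsf10, the death ligand TRAIL, averaged 18.2 ± 2.33 and 27.6 ± 8.78 CPM. Mx1, the paralog of Mx2, averaged 2.26 ± 0.468 and 1.98 ± 0.816 CPM, with a log2 fold change of -0.15 ± 0.27 (SE).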

How the data were processed

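RNA was sequenced from whole distal ileum, with 1 library per mouse, 6 WT and 5 dIEC. Per the labels' protocols, libraries were made from total RNA with a directional NEBNext Ultra kit. TopHat2 was the aligner and mm10 the build, per the submitters' processing notes. How reads were assigned to genes, with which tool, strand setting or rule for multiple positions, is not given in the sources used here. Raw counts per gene, as whole numbers, were deposited by the authors. 1 row named no gene (0.00778 to 0.0147% of a library) and was left out.

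The 40 members, their roles and all gene lists were chosen with earlier results of these data known. The rule for members is a list of symbols and uses no measured value. Genes were kept with filterByExpr and scaled by TMM in edgeR 4.0.16 (R 4.3.3). CPM are counts per 1000000 of the TMM-scaled library total. Groups (dIEC against WT) were compared by the quasi-likelihood F test of edgeR, with Benjamini-Hochberg adjustment over 15911 genes and a threshold of 0.05. Standard errors were derived from the log2 fold change and its F statistic. Exact permutation tests used all 462 splits (two-sided, smallest p 0.00433). The fit was tested on simulated counts with planted fold changes. Apart from these, expected counts differed between libraries only by library total, so the scaling was not tested. Alternatives were DESeq2 1.42.0, other scalings, filters and covariates, and each library left out.

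Full values per library are given, by rule, for up to 2 members a role with the lowest p, the 3 largest and 3 smallest fold changes, and 5 pairs of paralogs or neighbours. Up to 2 genes with the lowest p of each pathway list are named, plus Il10rb, Jak1, Tyk2, Mx1 and Socs1. A further pathway gene and the counts that include it are not reported here. The single-library values of Parp14, Ddx60 and Oas3 and the ranking per length were added after the values were seen. Coordinates and exon lengths are GENCODE vM21 (GRCm38, the same build as mm10), and promoter windows are RefSeq (GRCm38.p6).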

Additional observations from a re-analysis of the deposited data

Results flagged for a closer look

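In 8 of 80 groups of libraries (40 members in WT and in dIEC, 10%) the highest or lowest library stood apart from the rest of its group. The measure was the gap in CPM to the next library over the range of the group. For normally distributed values about 1 in 20 groups would be flagged, and whether these CPM are so distributed was not tested. In 5 of the 8 groups the library that stood apart was WT replicate 8, each time as the highest. That library was the highest of the WT libraries for 16 of the 40 members. Over all genes tested it was so for 28.1%, a larger share than that of any other WT library. The members were measured in the same libraries, so the 80 groups are not independent. How often groups of other genes hold a library that stands apart was not tested. WT replicate 8 also had the highest summed epithelial markers of all 11 libraries (2770 CPM) and the lowest macrophage (41.2 CPM), fibroblast (260.2 CPM) and endothelial (33.3 CPM) sums, and the part of these in its member values was not tested. Irf7 had 18.5 CPM there while the other WT libraries ran from 8.53 to 11.01, and Ifih1 had 35.3 CPM against 21.8 to 26.3. Trim25 had 65.1 CPM against 36.8 to 45.1. Oasl1 had 9.11 CPM against 2.65 to 4.77, and Samd9l had 41.9 CPM against 23.6 to 29.0.

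Among the dIEC libraries, Ifnlr1 had 13.1 CPM in replicate 1 against 7.09 to 8.71 in the others, and Oas3 had 6.03 CPM in replicate 3 against 1.82 to 2.75. Ifit3 had 1.42 CPM in replicate 6, below the 2.43 to 2.79 of the others.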

How the results depend on the processing

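No paired analysis was possible because no replicate number occurs in both groups. Under all 20 alternatives 0 members passed the adjusted threshold. Genes called were 1 in the reported fit, 11 by DESeq2, 2 with library size alone, 2 with the ribosomal share as a covariate, and 1 to 319 leaving out each library. Members with an unadjusted p under 0.05 were 4 in the reported fit, 1 with library size alone, 10 with the ribosomal share, 0 with the smooth muscle score, and 1 to 10 leaving out each library. With library size alone the members' median was 0.010 and 20 lay above 0. Members with an exact permutation p under 0.05 went from 1 to 0 on log2(CPM + 1) and to 0 with library size alone. With the longer ISRE motif 8 members matched, in place of 14.

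Of 734 member fold changes under an alternative 693 kept their direction, and 20 of the 37 members kept it in every one. With library size alone the log2 fold change became -0.15 for Ifnar1, -0.13 for Ifnar2, -0.025 for Stat2, -0.037 for Irf9, -0.098 for Ddx58, -0.18 for Ifit3b, -0.024 for Eif2ak2, -0.053 for Adar, -0.11 for Cmpk2, -0.14 for Bst2, -0.15 for Samd9l, -0.066 for Xaf1 and -0.091 for Jak1, while the median of all genes moved to -0.22. With the smooth muscle score it was -0.0097 for Ifnar1, -0.054 for Cmpk2, -0.067 for Samd9l and 0.22 for Ifi27l2a, and with the ribosomal share 0.067 for Ifi27l2a. Leaving out each library, it ran from -0.040 to 0.23 for Ifnar2, -0.17 to 0.40 for Ddx60, -0.080 to 0.25 for Ifit3b, -0.0098 to 0.66 for Oas3, -0.077 to 0.59 for Oasl1, -0.23 to 0.18 for Cmpk2, -0.017 to 0.24 for Bst2, -0.12 to 0.15 for Samd9l, -0.42 to 0.13 for Ifi27l2a, -0.092 to 0.059 for Ifi35 and -0.081 to 0.026 for Tyk2. Leaving out a library also makes the sample smaller, and the cause of these changes of direction was not tested. The 8 members with a mean under 2 CPM had 2 to 31 counts per library, which limits what can be detected.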

Other observations

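The GENCODE annotation places exons of other genes over some members, and the strand setting of the counting is not given in the sources used here. On the opposite strand, 1365 exon bases of Adar overlap Chrnb2, 458 bases of Dtx3l overlap Parp9 and 290 bases of Ifi35 overlap Gm11626. On the same strand, 1269 bases of Herc6 overlap Gm45193, 315 of Ifnar2 overlap Gm21970 and 123 of Irf9 overlap Rnf31. The effect of these overlaps on the counts was not tested.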
